A study of Mus musculus with 9 samples.

Results

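Integrins are the receptors by which cells hold on to the matrix, and laminins are matrix proteins that many of them bind. The genes for subunits of these 2 families were followed in mouse osteoblasts, the bone-forming cells, after short exposure to peptides of parathyroid hormone. The members were chosen by symbol alone: a gene counted if its transcript cluster (the group of array probes for 1 transcript region) carried a single symbol of the form Itga, Itgb, Lama, Lamb or Lamc with its number or letter. This gave 35 genes of 22180 measured with a single symbol, made up of 17 integrin alpha, 8 integrin beta and 10 laminin genes. Itga10 also falls under the rule, but no cluster carried its symbol alone, so it was not analysed here. Where a gene had several clusters, the brightest by its 9-array mean was read.

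RNA was measured on 9 Affymetrix Mouse Gene 2.0 ST arrays of primary osteoblasts from calvaria, the bones of the skull roof, of 7 to 10 day old C57BL/6J mice. Cultures were at passage 2, differentiation began on day 3, and serum was withheld for 24 h from day 10. The 3 groups received 100 nM human parathyroid hormone hPTH(1-34), 1 µM bovine parathyroid hormone bPTH(7-34) with D-tryptophan and tyrosine substitutions, or vehicle, each for 4 h in 3 independently prepared cultures. hPTH(1-34) activates Pth1r, the osteoblast's receptor for the hormone, and thereby cAMP production, whereas bPTH(7-34) lacks the first residues and is known to block that response. No gene was altered in any group. The cultures were not sorted, so they may hold other cells of the calvaria, and the peptides were given at different doses.

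An integrin is a pair of 1 alpha and 1 beta chain that spans the cell membrane, and the pair decides what is bound. Chains that recognise the RGD sequence bind fibronectin, vitronectin and bone sialoprotein, others bind collagen or laminin, and a separate set sits on leukocytes. A laminin is a trimer of 1 alpha, 1 beta and 1 gamma chain and is a founding component of basement membranes. In bone, integrins anchor osteoblasts to collagen and fibronectin, and Itgb1 pairs with most of the alpha chains that do so. Inside the cell, talin, vinculin and other adaptors join integrins to actin.

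Values are log2 expression, so a difference of 1 is a 2-fold difference. The limit of background was 1.69, the 95th percentile of vehicle means among 1105 genes for olfactory receptors, which osteoblasts are not expected to use. The medians of all clusters ran from 1.67 to 1.76 over the arrays, and 3 arrays per group limit the precision. Of the 13 osteoblast markers 11 were measured and 8 had a vehicle mean over the limit. Col1a1, the main bone collagen, read 12.14 to 12.42 on all arrays and the receptor Pth1r 4.01 to 5.08, while Sp7, Bglap and Dmp1, genes of committed or mature bone cells, had vehicle means under the limit. Of the 11 measured macrophage and leukocyte markers 10 were over it.

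Group differences were tested with limma across all 23521 clusters with a single symbol, two-sided, with Benjamini-Hochberg adjustment and a threshold of 0.05. In hPTH(1-34) cultures against vehicle, 0 of the 35 members passed, where 0.451% of all clusters did. The member with the smallest adjusted p was Lama4 at 0.186. At an unadjusted p under 0.05 there were 3 members (8.57%), Lama4, Itga7 and Itga3, beside 9.31% of all clusters. All 3 arrays of one group lay beyond all 3 of the other for 3 members (8.57%), Itga7 and Itga9 higher and Lama4 lower with hPTH(1-34), where 10.7% of all clusters did so. Positive differences were seen for 16 of the 35 members (45.7%) and for 50.2% of clusters. The median log2 difference of the members was -0.01, and the median size regardless of sign was 0.107, against 0.113 over all clusters. These shares and sizes are close to those of all clusters.

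The intervals show what these arrays could resolve. With hPTH(1-34) the 95% interval lay within 1.5-fold of vehicle in both directions for 21 members and within 2-fold for 31. Among the 13 members with a mean log2 value of at least 5, differences ran from -0.54 to 0.39. A difference that missed the threshold does not show that the level was equal.

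**Figure D1:**
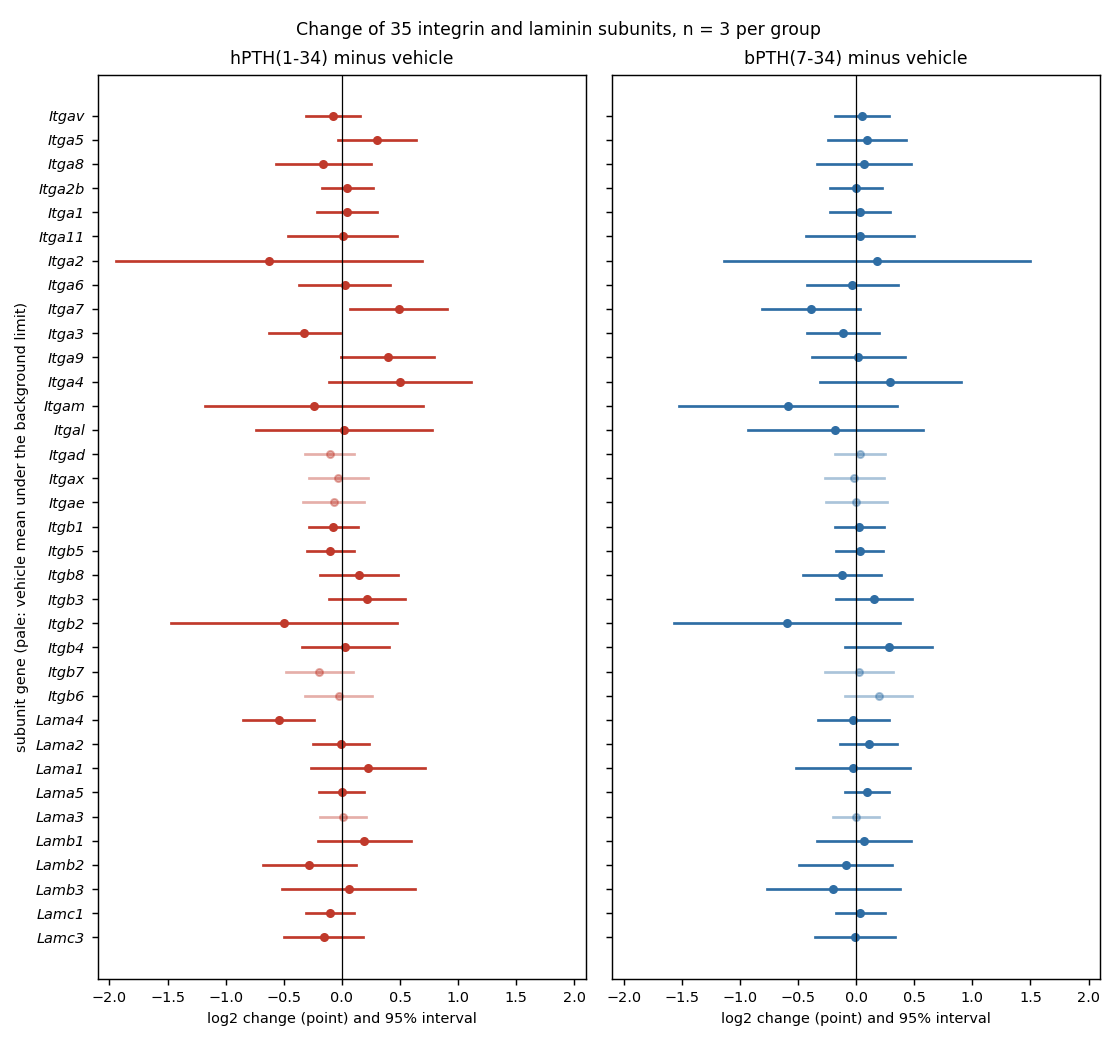
Points are log2 differences of the 35 integrin and laminin genes and bars their 95% intervals, hPTH(1-34) minus vehicle on the left and bPTH(7-34) minus vehicle on the right, from 3 arrays per group. Pale symbols mark the 6 genes whose vehicle mean was under the limit of background. Lama4 (-0.54), Itga7 (0.49) and, narrowly, Itga3 (-0.32) have intervals clear of 0 on the left, and no gene does on the right.

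Among the laminin genes, Lama4 had the smallest p. It encodes the alpha chain of laminins found in vessel walls, muscle and other mesenchymal tissue. Lama4 read 8.65, 8.35 and 8.10 in hPTH(1-34) cultures, 8.91, 8.77 and 8.98 in bPTH(7-34) cultures and 8.88, 8.88 and 8.97 in vehicle cultures. The 3 hPTH(1-34) arrays lay below the other 6, which overlapped each other. The log2 difference from vehicle was -0.54 ± 0.14 (SE, n = 3 per group; 95% interval -0.85 to -0.24), a 1.46-fold lower level, with an adjusted p of 0.186. The adjusted p depended on array 1 of hPTH(1-34), the one closest to vehicle. Without it Lama4 read -0.69 with an adjusted p of 0.0344 in limma. Over all clusters 259 then passed, against 106 with all arrays kept. Without any other single array the adjusted p of Lama4 ran from 0.250 to 0.435. In bulk cultures, fewer cells that make a transcript and less RNA per cell cannot be told apart. Lama4 is abundant in endothelium, and the summed signal of 10 endothelial markers was 34.0 to 36.8 with hPTH(1-34) and 34.7 to 39.9 with vehicle, with 4 of the 10 over the limit. Their part in the Lama4 values was not tested.

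For the chains that Lama4 joins in a trimer, the groups overlapped or touched. Lamc1, the gamma chain of most laminins, read 8.46, 8.48 and 8.58 with hPTH(1-34) and 8.58, 8.59 and 8.66 with vehicle, a difference of -0.10 (95% interval -0.31 to 0.11). Lamb1, a beta chain widely made in mesenchyme, read 8.55, 8.93 and 8.94 with hPTH(1-34) and 8.35, 8.62 and 8.87 with vehicle (0.19, 95% interval -0.21 to 0.60). Lamb2, the beta chain of vessel, muscle and synaptic basement membranes, read 7.35, 6.94 and 6.65 with hPTH(1-34) and 7.45, 7.20 and 7.13 with vehicle (-0.28, 95% interval -0.68 to 0.12).

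The other laminin alpha chains gave smaller or less certain differences. Lama2, the chain of muscle and nerve laminin, averaged 4.80 ± 0.16 with hPTH(1-34) and 4.81 ± 0.06 with vehicle (SD, n = 3 each), a difference of -0.01 ± 0.11 (SE). Lama1, best known from the early embryo, averaged 2.81 ± 0.41 with hPTH(1-34) and 2.58 ± 0.09 with vehicle. Lama5, a chain of many epithelial and vascular basement membranes, stayed between 1.87 and 2.08 on all 9 arrays, just over the limit of background. Lama3, an epithelial chain, lay under the limit on every array. Of the remaining chains, Lamb3, which pairs with Lama3 in skin, averaged 2.63 ± 0.17 with hPTH(1-34) and 2.58 ± 0.50 with vehicle, and Lamc3, a gamma chain, 1.85 ± 0.23 with hPTH(1-34) and 2.01 ± 0.21 with vehicle.

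**Figure D2:**
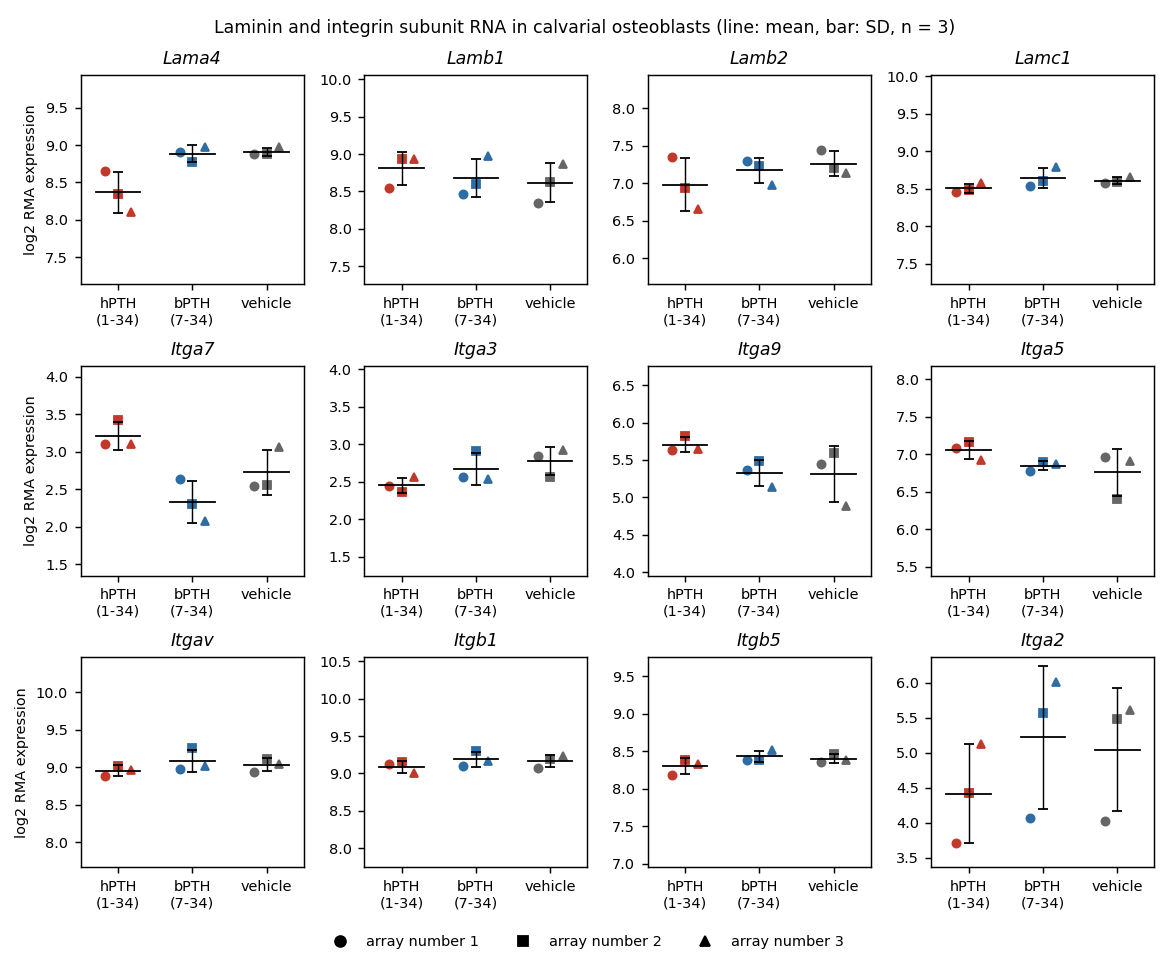
Log2 expression of 12 laminin and integrin genes on each array of the hPTH(1-34), bPTH(7-34) and vehicle groups, with the mean (line) and SD (bar) of 3 arrays and the marker shape giving the array number. Axes span different values, so heights cannot be compared between panels. The Lama4 arrays of hPTH(1-34) lie below the other 6, those of Itga7 and Itga9 above, and Itga2 spreads over more than 2 log2 units.

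Among the laminin-binding receptor chains, Itga7 and Itga3 lay on opposite sides of vehicle. Itga7, the main laminin receptor chain of muscle, read 3.11, 3.42 and 3.10 with hPTH(1-34), 2.63, 2.30 and 2.07 with bPTH(7-34) and 2.54, 2.56 and 3.07 with vehicle. All hPTH(1-34) arrays were higher than every other array, the nearest vehicle array by a margin of under 0.1. The difference from vehicle was 0.49 ± 0.19 (SE, adjusted p = 0.444), and bPTH(7-34) differed from vehicle by -0.39 ± 0.19 in the other direction. That second difference was -0.26 without bPTH(7-34) array 3 and -0.22 without vehicle array 3. The summed signal of 11 muscle markers was 47.2 to 54.8 with hPTH(1-34) and 45.7 to 63.7 with vehicle, so it overlapped, and 8 of the 11 were over the limit. Their part in the Itga7 values was not tested. Itga3, a laminin receptor chain of epithelia, read 2.44, 2.36 and 2.56 with hPTH(1-34) and 2.84, 2.56 and 2.93 with vehicle, sharing the value 2.56 (difference -0.32 ± 0.14, adjusted p = 0.504). Itga6, a laminin receptor chain of epithelia and stem cells, averaged 5.75 ± 0.23 with hPTH(1-34) and 5.73 ± 0.27 with vehicle.

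Itga9, whose product binds tenascin, osteopontin and the alternatively spliced EIIIA segment of fibronectin, read 5.64, 5.82 and 5.65 with hPTH(1-34), 5.37, 5.48 and 5.14 with bPTH(7-34) and 5.45, 5.59 and 4.89 with vehicle. The hPTH(1-34) arrays were the highest of the 9, though vehicle array 2 came within 0.1 of the nearest. The difference from vehicle was 0.39 ± 0.18 (SE, adjusted p = 0.539), and it was 0.18 without vehicle array 3, the lowest of the 9. Its closest relative Itga4, which binds fibronectin and Vcam1, averaged 2.41 ± 0.53 with hPTH(1-34) and 1.91 ± 0.37 with vehicle, and 1 of its arrays in each of these groups stood well apart from the others.

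Among the receptor chains for fibronectin and vitronectin, Itgb1, Itgav and Itgb5 had closely bounded values. Itgb1 read 9.12, 9.15 and 9.0 with hPTH(1-34), 9.10, 9.30 and 9.17 with bPTH(7-34) and 9.07, 9.19 and 9.23 with vehicle. The groups overlapped throughout, and the 95% interval for hPTH(1-34) minus vehicle was -0.28 to 0.14. Itgav, the alpha chain of the vitronectin receptors, read 8.88, 9.02 and 8.96 with hPTH(1-34) and 8.94, 9.11 and 9.04 with vehicle (-0.08, 95% interval -0.31 to 0.15). Its partner Itgb5 averaged 8.30 ± 0.10 with hPTH(1-34) and 8.40 ± 0.06 with vehicle (-0.10, 95% interval -0.30 to 0.10). These intervals lay within 1.5-fold in both directions.

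Itga5, the alpha chain of the classical fibronectin receptor, read 7.09, 7.16 and 6.93 with hPTH(1-34) and 6.97, 6.40 and 6.91 with vehicle. The difference of 0.30 ± 0.15 (SE, adjusted p = 0.597) leans on vehicle array 2, and without that array it was 0.12. Itgb3, which pairs with Itgav on osteoclasts and other cells, averaged 4.76 ± 0.25 with hPTH(1-34) and 4.54 ± 0.07 with vehicle. Itgb8, which pairs with Itgav and takes part in activating latent TGF-beta, averaged 5.26 ± 0.15 with hPTH(1-34) and 5.11 ± 0.28 with vehicle. Itga8, the nephronectin receptor chain, averaged 4.67 ± 0.24 with hPTH(1-34) and 4.83 ± 0.31 with vehicle. For Itgb3, Itgb8 and Itga8 limma's adjusted p was between 0.710 and 0.838.

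To show sequence near the start of 2 of these genes, the 250 bases before the annotated start were read from RefSeq (GRCm38.p6), where 22 of the 35 members had an entry. Lama4 and Itga7 were among the 13 members without one, so they were not searched. The cAMP response element TGACGTCA was searched on both strands, and so was its core TGACG, which any full element also holds. The full element was in 0 of the 22 and in 1.77% of all genes in the table. The core was in 4 of the 22, Itga9, Itgb1, Itgb6 and Lama5 (18.18%), against 19.79% of all genes. Itga9 and Itgb1 are printed because both hold the core, in capitals, and Itga9 had all hPTH(1-34) arrays above vehicle while the groups of Itgb1 overlapped. The Itga9 stretch lies at chr9:118711442-118711691 on the plus strand, with the core beginning 145 bases before the start, and the Itgb1 stretch at chr8:128685404-128685653 on the plus strand, with the core 21 bases before. A match in letters is a description and not evidence of a bound site.
Itga9: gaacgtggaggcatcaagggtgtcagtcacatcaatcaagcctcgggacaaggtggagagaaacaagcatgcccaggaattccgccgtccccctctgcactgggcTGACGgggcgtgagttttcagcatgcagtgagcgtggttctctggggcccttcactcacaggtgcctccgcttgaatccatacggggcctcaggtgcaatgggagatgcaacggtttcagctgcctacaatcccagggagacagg
Itgb1: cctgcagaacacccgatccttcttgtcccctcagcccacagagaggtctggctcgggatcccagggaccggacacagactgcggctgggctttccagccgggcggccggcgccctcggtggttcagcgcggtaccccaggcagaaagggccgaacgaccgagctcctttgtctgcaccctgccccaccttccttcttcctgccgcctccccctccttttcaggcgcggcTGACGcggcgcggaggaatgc

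The collagen receptor chains held both tight and loose measurements. Itga1, which binds collagen in many mesenchymal cells, averaged 7.62 ± 0.12 with hPTH(1-34) and 7.57 ± 0.07 with vehicle (0.05, 95% interval -0.21 to 0.30). Itga11, a receptor chain for fibrillar collagen, averaged 7.39 ± 0.30 with hPTH(1-34) and 7.39 ± 0.13 with vehicle. Itga2, the collagen receptor chain also found on platelets, read 3.71, 4.42 and 5.12 with hPTH(1-34), 4.07, 5.57 and 6.02 with bPTH(7-34) and 4.03, 5.49 and 5.61 with vehicle. In all 3 groups array 1 was the lowest by a wide margin. The Itga2 difference for hPTH(1-34) was -0.63 with a 95% interval of -1.94 to 0.69, so the interval held both a 2-fold lower and a 1.5-fold higher level. Arrays with the same number differed by -0.32, -1.07 and -0.49 between hPTH(1-34) and vehicle and by -0.36, -1.15 and -0.90 between hPTH(1-34) and bPTH(7-34), lower with hPTH(1-34) each time. Itga2b, the platelet chain, stayed between 1.96 and 2.21 on all 9 arrays.

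Of the leukocyte integrins, Itgb2, Itgam and Itgal were over the limit of background on all 9 arrays. Itgb2, the beta chain shared by leukocyte integrins, read 5.02, 3.71 and 2.97 with hPTH(1-34), 3.95, 3.82 and 3.65 with bPTH(7-34) and 4.85, 4.18 and 4.17 with vehicle. Its macrophage partner Itgam read 3.89, 3.07 and 2.41 with hPTH(1-34) and 3.73, 3.20 and 3.16 with vehicle, and Itgal, the lymphocyte and monocyte partner, 3.30, 2.82 and 2.41 with hPTH(1-34) and 3.32, 2.60 and 2.56 with vehicle. In the hPTH(1-34) group all 3 genes were highest on array 1 and lowest on array 3, and in the vehicle group all were highest on array 1.

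The macrophage and leukocyte markers also differed among arrays of a group, in the same order as these integrins with hPTH(1-34). With vehicle all were highest on array 1, but the markers were lowest on array 2 and the integrins, narrowly, on array 3. With bPTH(7-34) Itgam (3.18, 3.20 and 1.95) and Itgal (2.63, 3.25 and 2.06) followed the order of the markers, and Itgb2 did not. The mean log2 value of the 11 measured of 12 markers was 4.61, 3.80 and 3.17 on the hPTH(1-34) arrays, 3.92, 4.19 and 3.34 on the bPTH(7-34) arrays and 4.48, 3.64 and 3.92 on the vehicle arrays. Their summed linear signal was 156 to 527 with hPTH(1-34), 180 to 397 with bPTH(7-34) and 239 to 497 with vehicle. Cd68, Csf1r, Adgre1 and Lyz2 were over the limit on all 9 arrays, Ptprc on 6 and the T cell marker Cd3e on 1. The part of these cells in the Itgb2, Itgam and Itgal values was not tested. The Itgb2 difference was -0.50 with hPTH(1-34) (95% interval -1.47 to 0.47) and -0.59 with bPTH(7-34) (95% interval -1.57 to 0.38).

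**Figure D3:**
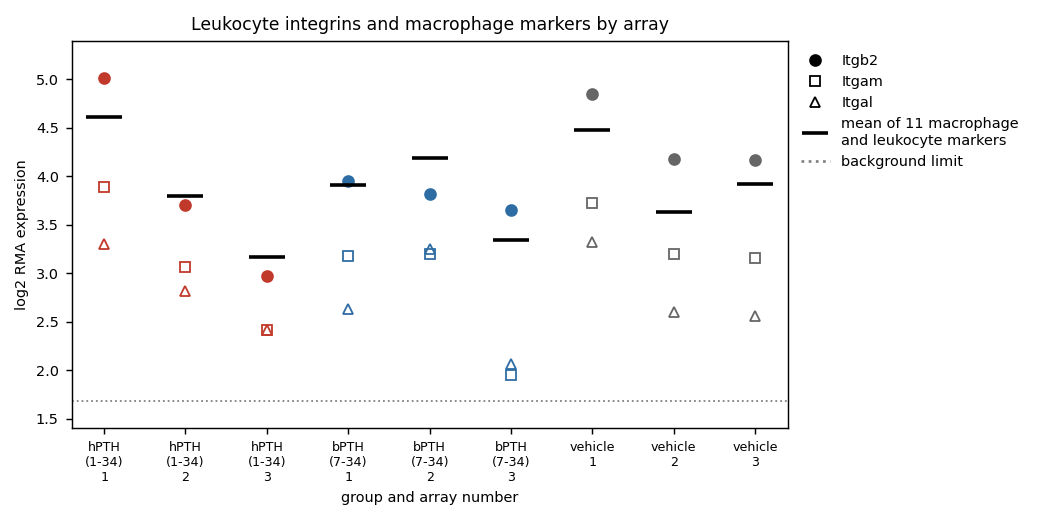
Log2 expression of Itgb2, Itgam and Itgal on each of the 9 arrays, with the mean of 11 macrophage and leukocyte markers as a bar and the limit of background (1.69) as a dotted line. On hPTH(1-34) arrays the marker mean runs over 4.61, 3.80 and 3.17, and the integrins are highest and lowest on the same arrays. On vehicle arrays all are highest on array 1, while the marker mean is lowest on array 2 and the 3 integrins, narrowly, on array 3. On bPTH(7-34) arrays the marker mean, Itgam and Itgal are highest on array 2 and Itgb2 on array 1. All of them are lowest there on array 3.

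The faint end of the family was at background. Itgad, Itgae and Itgax, further leukocyte chains, and the epithelial chains Itgb6 and Lama3 lay under the limit on all 9 arrays, and for them no level was resolved. Itgb6 averaged 1.00 ± 0.13 with hPTH(1-34), 1.22 ± 0.16 with bPTH(7-34) and 1.02 ± 0.18 with vehicle. Itga4, Itgb7 and Lamc3 were over it on some arrays and under it on others. Itgb7, a lymphocyte chain, averaged 1.37 ± 0.22 with hPTH(1-34), 1.59 ± 0.18 with bPTH(7-34) and 1.57 ± 0.01 with vehicle. The other 27 members were over it on all 9. Itgb4, the beta chain of epithelial hemidesmosomes, averaged 2.72 ± 0.16 with hPTH(1-34), 2.97 ± 0.15 with bPTH(7-34) and 2.69 ± 0.32 with vehicle.

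With bPTH(7-34) against vehicle, 0 of the 35 members passed limma's adjusted threshold, as did 0% of all clusters. No member reached an unadjusted p under 0.05, beside 3.32% of clusters, and the smallest adjusted p was 0.999. Itgb2 was the 1 member (2.86%) whose groups did not overlap, lower with bPTH(7-34), where 5.29% of clusters did not overlap. The median difference of the members was 0.02 and the median size 0.0667, against 0.0900 for all clusters. The 13 members with a mean of at least 5 differed by -0.12 to 0.09, and for all 13 the 95% interval lay within 1.5-fold in both directions. For Lama4 that interval was -0.33 to 0.28, for Itgb1 -0.18 to 0.24 and for Itgav -0.18 to 0.28.

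Between the 2 peptides the doses differed, so the next values compare the culture groups as they were treated. In hPTH(1-34) against bPTH(7-34) cultures, 0 of 35 members passed, where 0.463% of all clusters did. At an unadjusted p under 0.05 there were 2 members (5.71%), Itga7 and Lama4, beside 9.52% of clusters. Itga7 came closest, with a difference of 0.88 ± 0.19 (SE, 95% interval 0.46 to 1.30), 1.84-fold higher with hPTH(1-34), and an adjusted p of 0.100. Lama4 differed by -0.52 ± 0.14 (adjusted p = 0.203; -0.66 and 0.0404 without array 1 of hPTH(1-34)). The groups did not overlap for 4 members (11.4%), Itga5, Itga7 and Itga9 higher and Lama4 lower with hPTH(1-34), where 11.1% of clusters did not. This comparison uses the same hPTH(1-34) arrays as the one with vehicle. In the F-test of any difference among the 3 groups 0 members and 0.383% of clusters passed, and the smallest adjusted p were 0.216 for Itga7 and 0.250 for Lama4. Those 2 members, and 8.18% of clusters, had an unadjusted p under 0.05.

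How each gene varied over the 9 arrays was described by dividing its sum of squares between treatment, array number and the rest. Treatment held 75.9% for Lama4 and 74.1% for Itga7, and array number held 83.8% for Itga1, 78.0% for Lamb1 and 77.0% for Itga2. Averaged over the 3 groups, Itga2 read 3.94 on the arrays numbered 1, 5.16 on those numbered 2 and 5.58 on those numbered 3. Array number exceeded treatment for 21 of the 35 members (60.0%) and for 50.1% of all clusters. The median share of array number was 36.9% over the members and 24.7% over all clusters, and that of treatment 25.0% over the members and 24.5% over all clusters. Ibsp, the bone sialoprotein of mineralising osteoblasts, also spread by array number, at 2.54, 5.09 and 3.86 with hPTH(1-34) and 3.10, 4.34 and 4.08 with vehicle. The labels do not say whether arrays with the same number shared a preparation of cells, and the part of such a preparation in these values was not tested.

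**Figure D4:**
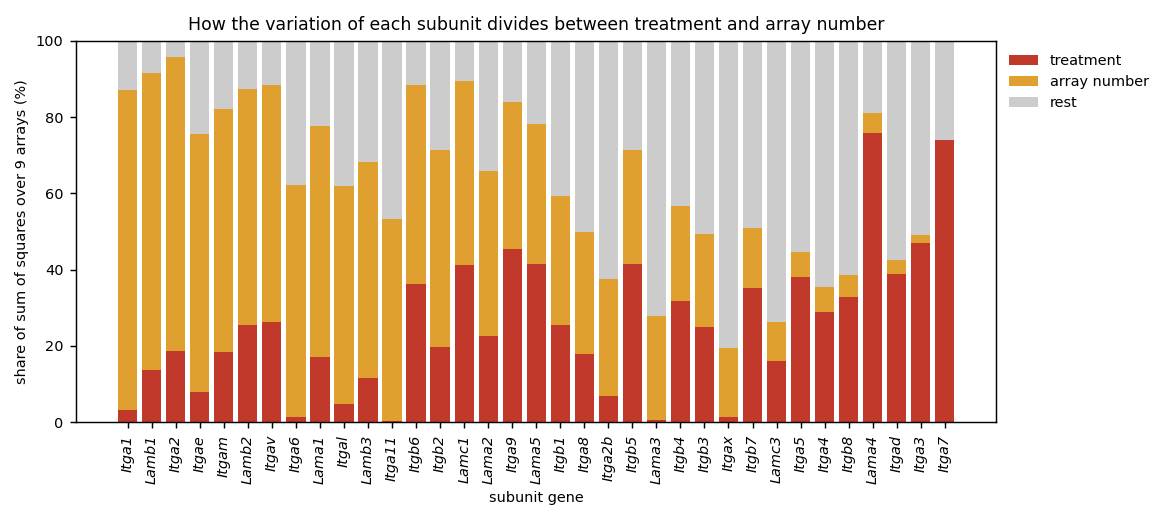
Each bar divides the sum of squares of 1 gene over the 9 arrays (100%) into treatment, array number and the rest, with the 35 genes ordered by the share of array number. Itga1 stands at one end with 83.8% for array number, and Lama4 (75.9%) and Itga7 (74.1%) have the tallest treatment parts.

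Genes that work with integrins and laminins were read from 3 lists. Of 41 focal adhesion and integrin adaptors 36 were measured, and with hPTH(1-34) 0 rose and 1 fell, with a median log2 difference of -0.08 and 12 positive values. Of 43 matrix ligands of integrins 41 were measured, and 0 rose and 1 fell (median -0.03, 16 positive). Of 30 basement membrane partners and other laminin receptors 29 were measured, and 1 rose and 0 fell (median 0.01, 17 positive). Over all clusters the median was 0.00, 0.31% rose and 0.14% fell. Against bPTH(7-34), where 0.332% of clusters were higher and 0.132% lower with hPTH(1-34), 1 adaptor and 1 ligand were lower and no partner passed. With bPTH(7-34) against vehicle no gene of the 3 lists passed, with medians of 0.03, -0.02 and 0.01.

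The adaptor that fell was Vcl, vinculin, which strengthens the link from integrins to actin. It read 7.79, 7.95 and 7.74 with hPTH(1-34), 8.47, 8.35 and 8.50 with bPTH(7-34) and 8.50, 8.43 and 8.35 with vehicle, so the hPTH(1-34) arrays lay well below the other 6. The difference from vehicle was -0.60 ± 0.09 (SE, n = 3 per group), a 1.52-fold fall with an adjusted p of 0.0380. That call is fragile, since with any 1 of the 9 arrays left out the adjusted p ran from 0.0525 to 0.180, while the difference stayed between -0.66 and -0.56. A block for array number gave 0.0662. Tns3, another adaptor, gave -0.49 ± 0.13 (adjusted p = 0.218) and the actin crosslinker Actn4 -0.23 ± 0.08 (adjusted p = 0.389).

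The stretch of 250 bases before the start of Vcl, at chr14:20929148-20929397 on the plus strand (RefSeq, GRCm38.p6), holds a CArG box, the element bound by serum response factor, shown in capitals and beginning 227 bases before the start. It is printed because Vcl was the adaptor that passed, and the box was looked for only after this sequence had been read. CArG boxes, searched on both strands, occurred before 2 of the 22 members, Itgb6 and Lama2 (9.09%), and before 1.62% of all genes in the table. Itgb6 was under the limit of background, and Lama2 differed from vehicle by -0.01 with hPTH(1-34). Sdc1 held no box and Thbs1 had no entry. Here too a match in letters is not evidence of a bound site, and a part of the box in the Vcl values was not tested.
Vcl: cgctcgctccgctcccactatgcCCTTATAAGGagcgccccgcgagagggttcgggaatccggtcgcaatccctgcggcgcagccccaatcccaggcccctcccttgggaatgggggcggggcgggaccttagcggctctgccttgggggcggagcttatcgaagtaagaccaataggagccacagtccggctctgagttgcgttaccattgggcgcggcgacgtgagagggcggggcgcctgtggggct

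The ligand that fell was Thbs1, thrombospondin, a secreted glycoprotein that binds integrins and CD36. It read 10.38, 10.28 and 10.32 with hPTH(1-34), 10.97, 11.16 and 11.28 with bPTH(7-34) and 10.97, 11.25 and 11.02 with vehicle. The hPTH(1-34) arrays lay close together and below all others. The difference from vehicle was -0.75 ± 0.11 (SE), a 1.69-fold fall with an adjusted p of 0.0338. The adjusted p was 0.159 and 0.153 without hPTH(1-34) arrays 2 and 3, 0.0713 without bPTH(7-34) array 2, and 0.0545, 0.150 and 0.131 without vehicle arrays 1, 2 and 3. Without any of the remaining 3 arrays it was 0.0334 to 0.0461.

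The basement membrane partner that rose was Sdc1, syndecan, a cell-surface heparan sulfate proteoglycan that binds laminin and other matrix proteins. It read 5.12, 5.32 and 5.19 with hPTH(1-34), 4.61, 4.80 and 4.60 with bPTH(7-34) and 4.62, 4.47 and 4.47 with vehicle. The difference from vehicle was 0.69 ± 0.10 (SE), a 1.61-fold rise with an adjusted p of 0.0292. A second, dimmer cluster of Sdc1 gave 0.42 ± 0.09 (adjusted p = 0.129). The adjusted p of the brighter cluster was 0.145 and 0.138 without hPTH(1-34) arrays 2 and 3, 0.0556 without bPTH(7-34) array 1, and 0.150 and 0.144 without vehicle arrays 2 and 3. Without any of the remaining 4 arrays it was 0.0227 to 0.0478.

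**Figure D5:**
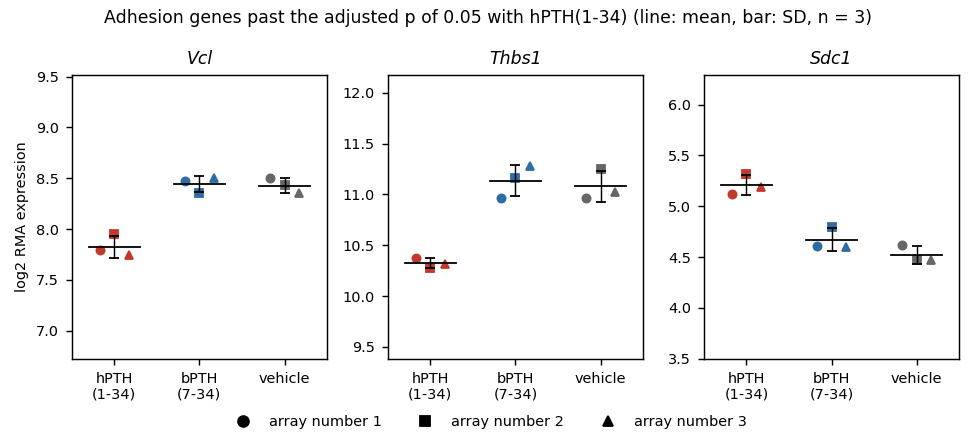
Log2 expression of Vcl, Thbs1 and Sdc1 on each array of the hPTH(1-34), bPTH(7-34) and vehicle groups, with the mean (line) and SD (bar) of 3 arrays and marker shapes for array numbers. The hPTH(1-34) arrays of Vcl (7.74 to 7.95) and Thbs1 (10.28 to 10.38) lie below all others, and those of Sdc1 (5.12 to 5.32) above.

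In hPTH(1-34) against bPTH(7-34) cultures the differences were -0.61 ± 0.09 for Vcl (adjusted p = 0.0350), -0.81 ± 0.11 for Thbs1 (adjusted p = 0.0239) and 0.54 ± 0.10 for Sdc1 (adjusted p = 0.0609). These calls were fragile too: with 1 array left out Vcl passed in 1 of 9 fits (adjusted p from 0.0492 to 0.143), namely without hPTH(1-34) array 1. Thbs1 passed in 4 of 9 (0.0265 to 0.120), and it failed without hPTH(1-34) array 2 (0.120) or 3 (0.114), bPTH(7-34) array 2 (0.0949) or 3 (0.112), or vehicle array 3 (0.0535). Among the next genes of the lists, Adam9, a membrane protease with an integrin-binding domain, gave 0.35 ± 0.14 against vehicle (adjusted p = 0.457). Bcam, a receptor for the laminin alpha chain of Lama5, gave -0.32 ± 0.12 (adjusted p = 0.420), and Smoc1, a matrix protein of basement membranes, 0.47 ± 0.25 (adjusted p = 0.631). Nid1, the linker between laminin and collagen networks, averaged 10.50 ± 0.04 with hPTH(1-34) and 10.55 ± 0.13 with vehicle.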

How the data were processed

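RNA was measured on 9 arrays, 3 per group. The deposited values are log2 expression per transcript cluster, as their range shows. For them the authors named RMA and Affymetrix Expression Console, per the submitters' processing notes, with versions not given in the sources used here. No scanner files were used. Of 41345 clusters, 23521 had 1 symbol, 1814 several and 16010 none, and the RefSeq table gave the same symbol for all 35 members.

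One fit of all 9 arrays with group as its only term used lmFit and eBayes of limma 3.58.1 (R 4.3.3, 6 residual and 3.20 prior degrees of freedom). P-values were adjusted within each of 3 comparisons over the 23521 clusters. The series text states independent preparations for each replicate, so p-values measure the spread between preparations within a treatment. Errors beside levels are SDs of 3 arrays.

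Any member could be named. Those described in depth were the 10 with the smallest p of the F-test. Of each pathway list, genes past 0.05 were taken, and up to 3 that had the lowest p in hPTH(1-34) against vehicle. Old symbols of genes already in a list were counted once. Members and lists were chosen with earlier results of these data known. Fga, a ligand picked by this rule, was under the limit of background.

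Alternatives were the array number as a block, all clusters, a minimum mean log2 of 5, quantile normalisation, 1 array median, trended and robust eBayes, the 6 arrays of a comparison, the mean of a gene's clusters, and each array left out. The fit was tested on simulated data. Promoter sequences came from RefSeq (GRCm38.p6). Figures used matplotlib 3.10.9 (Python 3.11.15).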

Additional observations from a re-analysis of the deposited data

How the results depend on the processing

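The count of 0 members past the threshold held in each comparison under every alternative that kept all arrays of the groups compared. Leaving out 1 array gave 0 to 1 members for hPTH(1-34) against vehicle and 0 to 1 for hPTH(1-34) against bPTH(7-34). The 1 was Lama4 without array 1 of hPTH(1-34), and for bPTH(7-34) against vehicle it was 0 throughout.

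Over all clusters the number called for hPTH(1-34) against vehicle was 106, but 16 with all clusters of the table, 182 with clusters of a mean log2 of at least 5, 0 with the 6 arrays of the comparison (1936 at an unadjusted p under 0.05) and 0 to 259 with 1 array left out. For hPTH(1-34) against bPTH(7-34) it was 109, but 3, 211 and 0 (2066 unadjusted) under the first 3 of these. The filter at 5 kept 13 members, and Lama4 had an adjusted p of 0.0620 and 0.0661 in these comparisons. Vcl lost its call against vehicle with all clusters (0.109), 1 array median (0.0535) and 6 arrays (0.138). Thbs1 and Sdc1 lost theirs with all clusters (0.0980 and 0.0843) and 6 arrays (0.0989 each), where more clusters or fewer arrays enter the test. Against bPTH(7-34), Vcl and Thbs1 lost theirs with all clusters (0.104 and 0.0826) and 6 arrays (0.139 and 0.101), and Sdc1 passed with the mean of its clusters (0.0353).

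With the array number as a replicate block, 0 members passed in each comparison, with smallest adjusted p of 0.185 for hPTH(1-34) against vehicle and 0.104 against bPTH(7-34). The second of these is Itga2, whose interval against vehicle narrowed to -1.01 to -0.24 (adjusted p = 0.197). Vcl lost its calls (0.0662 and 0.0594), while Thbs1 and Sdc1 changed no call and 112 and 116 clusters passed in all. Deviations of arrays with the same number correlated positively in every pair of groups. The correlations were 0.241 to 0.364 for number 1, 0.0646 to 0.0724 for number 2 and 0.174 to 0.267 for number 3. Because the labels do not say whether such arrays shared a preparation, the main fit had no block. A shared preparation was not tested.

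Turns of sign were looked for only in the members described in depth and in Vcl, Thbs1 and Sdc1. The other members were not searched, so further turns among them are possible. Among the genes searched, leaving out 1 array turned the sign of the following differences. The largest of these differences was 0.21 with all arrays kept, for Itga4 in hPTH(1-34) against bPTH(7-34). For hPTH(1-34) against vehicle they ran from -0.128 to 0.0517 for Itgb6, -0.15 to 0.15 for Itgb4 and -0.0017 to 0.28 for Itgb8, and against bPTH(7-34) from -0.10 to 0.36 for Itga4. For bPTH(7-34) against vehicle they ran from -0.19 to 0.16 for Itga9, -0.0717 to 0.103 for Itgb7, -0.025 to 0.0583 for Vcl, -0.07 to 0.035 for Lama4, -0.015 to 0.142 for Thbs1, -0.275 to 0.005 for Itgb8 and -0.09 to 0.20 for Itga5. The cause was not tested. The 3 arrays per group and signals near background limit what can be resolved for the 22 members with a mean log2 under 5.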

Other observations

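A second cluster annotated to Itgav read 1.13 ± 0.07 with hPTH(1-34), 1.25 ± 0.06 with bPTH(7-34) and 1.21 ± 0.06 with vehicle (SD, n = 3 each), under the limit of background. Clusters that carry 2 symbols, Itgb4 with B230344G16Rik and Itga4 with Cerkl, read at most 1.33 and 1.85 on any array and were used in no comparison.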
